A study of Homo sapiens with 96 samples.

Results

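The comparison described here set untreated REC1 cells against untreated Z138 cells on every probe set of an oligonucleotide array that covers the human transcriptome. Both are established cell lines of mantle cell lymphoma, a cancer of mature B cells. The members were the 3 untreated REC1 arrays and the 3 untreated Z138 arrays numbered 1 to 3, which makes 6 of the 96 arrays of the series. Per the study's methods, REC1 cells were grown in RPMI 1640 and Z138 cells in DMEM, both with serum and glutamine, and both were given no antibody (a dose of 0 µg/ml) and taken at 4 hours. Because each line had its own medium, line and medium cannot be told apart. Each line is a single culture model. The study's methods describe a cell suspension for each array analysis and 3 replicates, but do not say whether these came from independent cultures. The p-values therefore measure the spread between arrays only. That spread was estimated over all 21 untreated arrays of the 4 lines, not over the 6 compared arrays alone. The series also holds a second set of 3 untreated Z138 arrays (numbered 4 to 6), 6 untreated arrays each of SUDHL4 and OciLy18, which are diffuse large B-cell lymphoma lines, and arrays of all 4 lines after antibodies against CD20 or the B cell receptor.

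A mature B cell carries a B cell receptor, an immunoglobulin of paired heavy and light chains held in the membrane with CD79A and CD79B, and its signal runs through the kinases LYN and SYK and is damped by inhibitory coreceptors. The same cell presents peptides to helper T cells on MHC class II and to killer T cells on MHC class I. Mantle cell lymphoma carries a translocation that places CCND1, the gene of cyclin D1, under an immunoglobulin enhancer, and often expresses SOX11 and CD5.

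The values are array signals as the scanner software gave them, in arbitrary units scaled to a common mean, and a signal under 100 was treated as dim because no detection calls were used. Folds that involve a dim group are therefore given as "at least", computed with the dim mean raised to 100. Log2 differences and list medians are not bounded in this way. They use signals with values below 1 set to 1, so their size is uncertain where a group was dim. Arrays of 1 line were close to each other (lowest correlation 0.988 within REC1 and 0.992 within Z138) and far from the other line (highest 0.614). The Z138 arrays 1 to 3 had more signals below 1 (7.98 to 17.03% of probe sets, against 4.41 to 5.34% in REC1) and a higher ratio of the actin 3' to 5' control probe sets (1.99 to 2.25, against 1.16 to 1.30 in REC1). The Z138 arrays 4 to 6 stood nearer to REC1 in both (4.07 to 5.70% of signals below 1, and an actin ratio of 1.41 to 1.75), so list counts are also given against them. The part of these array differences in the results was not tested.

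A total of 9529 entries passed the signal limit of 100 in either line. An entry is a gene of 1 symbol, or a single probe set with several symbols or none, which may repeat a gene. Of these entries 1834 (19.2%) were higher and 1395 (14.6%) lower in REC1 by at least 1 probe set, at a change above 2-fold and a limma adjusted p below 0.05. For 9 genes, probe sets were called in both directions. Counting each gene of a single symbol once, by its brightest probe set, 1339 of 7968 (16.8%) were higher and 985 (12.4%) lower, which is 2324 (29.2%) in either direction, and the median difference over all of them was 0.06 on the log2 scale. This count by brightest probe set is the background for every list below. List members were chosen with earlier results of these data known, so list counts beyond this background are descriptions and not tests. In all 1339 and 985, the 3 REC1 arrays lay entirely beyond the 3 Z138 arrays. The calls were made on these same arrays, so this separation adds no support to them. Against Z138 arrays 4 to 6, 996 of the 1339 and 802 of the 985 were called again and none was called the other way, where 13.6% of 7904 tested genes were higher and 11.4% lower. In bulk RNA a lower level per cell and fewer cells that express a gene cannot be told apart.

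**Figure D1:**
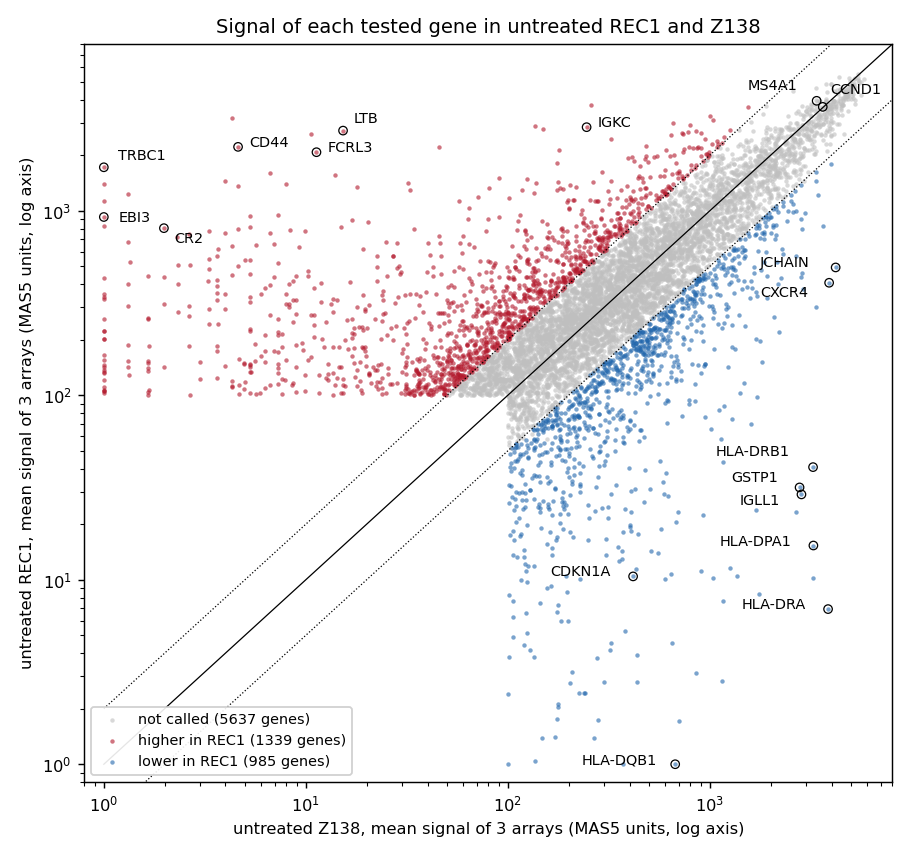
Mean signal of each tested gene in untreated REC1 (vertical, log axis) against untreated Z138 (horizontal, log axis), each point 1 gene and each mean over 3 arrays. Red points were higher in REC1 (1339 genes), blue points lower (985 genes) and grey points not called. The solid line marks equal signal and the dotted lines 2-fold, means under 1 are drawn at 1, and CCND1 and MS4A1 lie near the solid line while class II genes lie far below it.

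MHC class II chains were among the genes with the largest reductions in REC1. HLA-DRA, the invariant alpha chain of HLA-DR, had signals of 5.21, 9.12 and 6.46 in REC1, against 3658, 3959 and 3905 in Z138. The groups were far apart, and REC1 was at least 38.4-fold lower (limma adjusted p = 7.04e-23), the largest bound of any gene of 1 symbol. HLA-DPA1 gave 14.6, 15.2 and 16.1 in REC1, against 3190, 3268 and 3292 in Z138 (at least 32.5-fold lower, limma adjusted p = 2.18e-26). HLA-DRB1, the partner of HLA-DRA, read 44.8, 36.5 and 40.9 in REC1, against 3033, 3359 and 3318 in Z138 (at least 32.4-fold lower). HLA-DPB1 had a mean of 8.32 ± 2.98 in REC1 and 1743 ± 74.2 in Z138 (SD, n = 3 each). HLA-DQA1 and HLA-DQB1 averaged 0.347 and 0.697 in REC1, against 373 and 673 in Z138. No array of 1 line overlapped the other for any of these chains.

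The class II genes that act in or regulate peptide loading were lower as well. HLA-DMA averaged 38.0 ± 2.23 in REC1 and 608 ± 18.3 in Z138, HLA-DMB 45.8 ± 9.36 in REC1 and 264 ± 12.3 in Z138, and HLA-DOA 14.9 ± 2.17 in REC1 and 165 ± 17.2 in Z138 (SD, n = 3 each). Together 9 of the 16 tested class II genes were lower and 0 higher, with a median of -3.01 on the log2 scale, against 12.4% lower and 16.8% higher among all genes. The count was again 9 of 16 against Z138 arrays 4 to 6. CD74, the invariant chain that escorts class II molecules, was much less affected. Its signals were 3021, 2957 and 2824 in REC1, against 4190, 4359 and 4194 in Z138 (log2 difference -0.53, 95% interval -0.66 to -0.41), while a second, dimmer CD74 probe set was called higher in REC1 (383 in REC1, against 149 in Z138).

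Of the regulators of these genes, RFX5, RFXAP and RFXANK did not show a gap of that size, and CIITA could not be compared. CIITA, the class II transactivator, was dim in both lines (56.3, 86.2 and 68.9 in REC1, against 51.2, 53.5 and 48.4 in Z138) and was not tested. RFX5, a subunit of the factor that binds the X box of class II promoters, averaged 610 ± 65.9 in REC1 and 1008 ± 132 in Z138 (log2 difference -0.72, under 2-fold and not called). RFXAP and RFXANK, its partners, stood at 296 and 473 in REC1, against 383 and 293 in Z138. All 24 REC1 arrays of the series, whatever the treatment, lay below all 24 Z138 arrays for each of the 9 lower genes, HLA-DRA reaching 20.8 at most in REC1 and 3182 at least in Z138. SUDHL4 and OciLy18 expressed HLA-DRA at 3081 and 4455, so REC1 alone among the 4 lines was dim.

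Class II promoters share an X box and a Y box a short way upstream of the start, and the windows below are shown because 9 of these genes were lower together. RefSeq promoters (GRCh38.p14) were found for 8 of the 9. The Y box core ATTGG, which reads CCAAT on the other strand, was present within 250 bases upstream of any annotated start in 7 of the 8, against 10102 of all 27305 genes (37%) counted in that way, and the X box core AGCAAC, on the other strand GTTGCT, in 4 of the 8, against 12.5%. Of single promoter windows of that length (35116), 32.0% held the Y box core and 10.3% the X box core. Each run covers bases 110 to 41 before the start, read 5′ to 3′ on the strand of the gene, with any match to either core in capitals. The X box core occurs only in the runs of HLA-DRB1 and HLA-DOA. Both capital stretches of HLA-DPB1 and of HLA-DQB1 are the Y box core, on opposite strands.
HLA-DRB1, chr6:32589889-32589958, minus strand: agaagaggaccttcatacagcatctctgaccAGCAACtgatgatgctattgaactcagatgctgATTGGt
HLA-DOA, chr6:33009632-33009701, minus strand: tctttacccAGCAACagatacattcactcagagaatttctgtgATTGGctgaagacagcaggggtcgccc
HLA-DPB1, chr6:33075880-33075949, plus strand: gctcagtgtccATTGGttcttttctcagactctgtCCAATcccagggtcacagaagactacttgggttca
HLA-DQA1, chr6:32637296-32637365, plus strand: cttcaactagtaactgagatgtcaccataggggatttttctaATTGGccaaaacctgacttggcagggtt
HLA-DQB1, chr6:32666698-32666767, minus strand: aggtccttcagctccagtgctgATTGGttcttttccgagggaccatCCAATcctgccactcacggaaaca
A match is a description of the letters and not a measured binding site.

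The MHC class I chains were lower in REC1 as well. HLA-B gave 386, 348 and 389 in REC1, against 2749, 2979 and 2969 in Z138 (7.75-fold lower, limma adjusted p = 5.17e-15). HLA-C gave 834, 833 and 822 in REC1, against 3519, 3721 and 3631 in Z138. The nonclassical genes HLA-E, HLA-F and HLA-G averaged 76.7, 83.3 and 98.2 in REC1, against 728, 1104 and 1702 in Z138. Class I genes are close in sequence, so single probe sets may read several of them, but every tested probe set of these 5 genes was called lower. B2M, their shared light chain, stayed bright in both lines (3769 ± 311 in REC1 and 5221 ± 170 in Z138).

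Among the other class I genes, the peptide trimming enzyme ERAP2 (70.6 in REC1, against 610 in Z138), the immunoproteasome subunit PSMB8 (191 in REC1, against 610 in Z138) and the class I transactivator NLRC5 (73.7 in REC1, against 198 in Z138) were lower. The loading factor TAPBP (929 in REC1, against 445 in Z138) and the immunoproteasome subunit PSMB10 (1135 in REC1, against 540 in Z138) were higher. The peptide transporter genes TAP1 and TAP2 read 148 and 166 in REC1, against 189 and 192 in Z138, and were not called. In total 8 of 20 tested class I genes were lower and 2 higher, with a median of -0.67, and 9 and 2 against Z138 arrays 4 to 6.

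**Figure D2:**
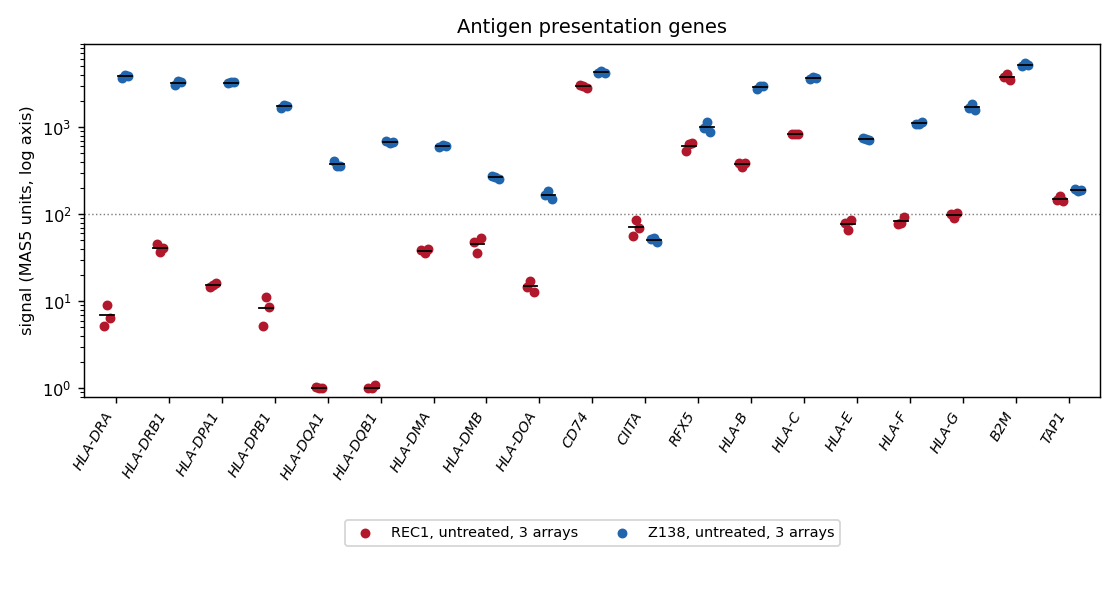
Signal of antigen presentation genes (log axis) in each of the 3 untreated REC1 arrays (red, left of each pair) and 3 untreated Z138 arrays (blue, right), with a black bar at the mean and a dotted line at the signal of 100. Values under 1 are drawn at 1. Every class II chain from HLA-DRA to HLA-DOA lies under the line in REC1 and above it in Z138, whereas CD74 and B2M are bright in both.

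Both lines carried immunoglobulin M, but the light chain transcripts differed. IGHM, the heavy chain of IgM, had 3990, 4175 and 3156 in REC1, against 3742, 4029 and 3942 in Z138, and the groups overlapped (log2 difference -0.06, 95% interval -0.47 to 0.35). A dimmer IGHM probe set was called higher in REC1 (175.6 in REC1, against 68.3 in Z138). IGKC, the kappa light chain constant region, had 2875, 3085 and 2539 in REC1, against 235, 240 and 260 in Z138, with no overlap (11.5-fold higher, limma adjusted p = 7.94e-06). IGLC1, which stands for the near-identical lambda constant genes, was bright in both (4044 ± 292 in REC1 and 4839 ± 166 in Z138). A transcript annotated to BMS1P20, a pseudogene within the lambda locus, averaged 10.2 in REC1 and 3221 in Z138 for its brightest probe set, and 2 of its 4 tested probe sets were called. Immunoglobulin probe sets read related segments, so the assignment to 1 gene is uncertain.

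IGLL1, a surrogate light chain gene of precursor B cells that resembles lambda, had 35.5, 20.3 and 31.2 in REC1, against 2731, 2931 and 2848 in Z138 (at least 28.4-fold lower). IGHD, the heavy chain of IgD, was 36.1 ± 10.4 in REC1 and 279 ± 7.60 in Z138. This is RNA only, and the study's flow cytometry gave IgD protein in the opposite order (++ in REC1 and + in Z138). JCHAIN, which joins secreted IgM, was 492 ± 69.5 in REC1 and 4188 ± 148 in Z138. The receptor's signalling pair went the other way. CD79A stood at 2583, 2620 and 2656 in REC1, against 681, 776 and 723 in Z138 (3.61-fold higher), and CD79B at 1273 ± 21.3 in REC1 and 414 ± 15.7 in Z138.

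Components of B cell receptor signalling were mostly higher in REC1. Of 37 tested genes 19 were higher and 3 lower, with a median of 1.01, and against Z138 arrays 4 to 6 the counts were 21 and 4. FYN, a kinase of the SRC family, read 1537, 1445 and 1544 in REC1, against 89.4, 89.2 and 91.8 in Z138 (at least 15.1-fold higher, limma adjusted p = 1.39e-19). PRKCB, the protein kinase C that links the receptor to NF-kB, read 1387, 1426 and 1416 in REC1, against 29.1, 37.6 and 29.6 in Z138 (at least 14.1-fold higher). Neither gene overlapped between the lines in any of the 24 REC1 and 24 Z138 arrays.

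VAV3, a signalling protein of the VAV family, averaged 620 ± 73.4 in REC1 and 19.21 ± 1.896 in Z138, and BANK1, a B cell scaffold protein, 1167 ± 72.2 in REC1 and 102 ± 14.7 in Z138. The proximal kinases were higher by smaller steps, LYN at 2140 in REC1 and 604 in Z138, SYK at 1218 in REC1 and 539 in Z138, and BLK at 390 in REC1 and 137 in Z138. BTK, the kinase downstream of SYK, was level (593 in REC1 and 550 in Z138). The 3 lower genes were PIK3CG, a catalytic subunit of PI3 kinase (44.2 in REC1, against 567 in Z138), RASGRP3, a Ras activator (1.39 in REC1, against 147 in Z138), and CD81, a tetraspanin (1113 in REC1, against 2304 in Z138).

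Inhibitory coreceptors and their phosphatases were mostly higher in REC1. Of 24 tested genes 17 were higher in REC1 and 2 lower, with a median of 1.96, and 16 and 3 against Z138 arrays 4 to 6. The Fc receptor-like genes, whose products sit on B cells and carry inhibitory or mixed tyrosine motifs, were led by FCRL3 with 2092, 1983 and 2145 in REC1, against 14.1, 13.9 and 5.92 in Z138 (at least 20.7-fold higher). FCRL4 had 1469, 1508 and 1374 in REC1, against 6.03, 2.97 and 2.96 in Z138. FCRL5, FCRL2 and FCRL1 averaged 1300, 732 and 454 in REC1, against 32.8, 45.7 and 5.31 in Z138. All 5 were dim in Z138 and bright in REC1. FCRLA, a relative that stays inside the cell, went the other way by its brightest probe set (700 ± 32.6 in REC1 and 1488 ± 31.1 in Z138), but 1 of its 3 tested probe sets was called and their mean was not (log2 difference -0.69).

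Outside that family, CD22, the sialic acid lectin that restrains the receptor, read 307, 291 and 323 in REC1, against 31.1, 18.8 and 11.8 in Z138. SIGLEC10 averaged 946 in REC1 and 115 in Z138, and CD300A 722 in REC1 and 2.31 in Z138. The phosphatases these receptors recruit were higher too, PTPN6 (SHP-1) at 1420 ± 69.5 in REC1 and 138.4 ± 8.83 in Z138, and INPP5D (SHIP-1) at 821 ± 120 in REC1 and 218 ± 6.89 in Z138. FCGR2B, the inhibitory Fc gamma receptor, was the other lower gene of the list (130 in REC1, against 365 in Z138).

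**Figure D3:**
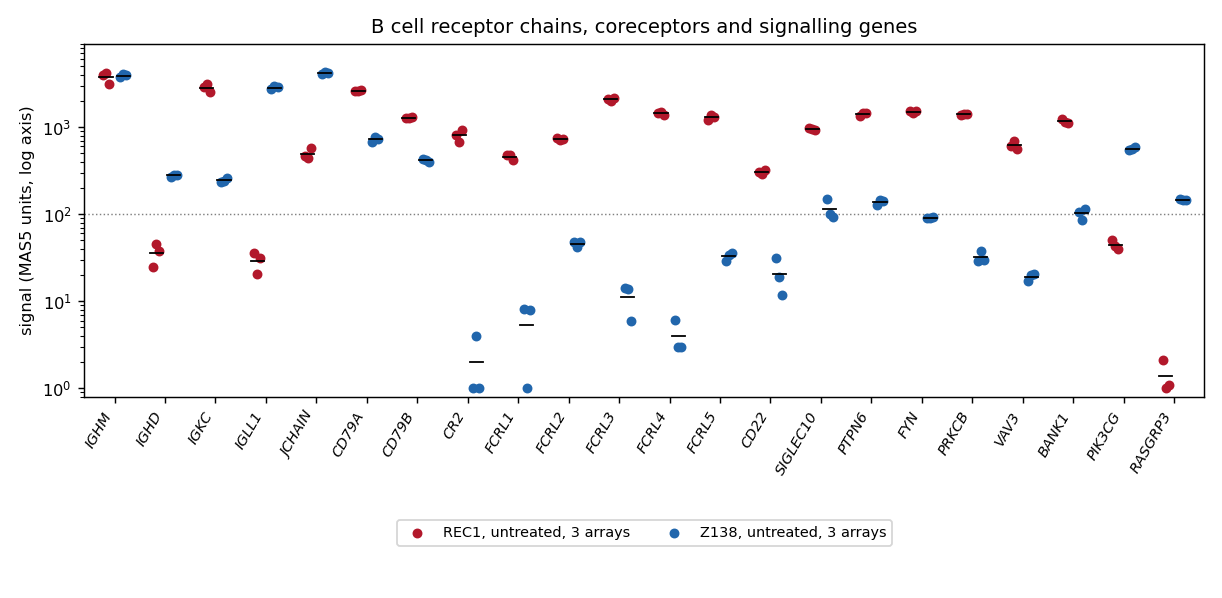
Signal (log axis) of receptor chains, coreceptors and signalling genes in each untreated REC1 array (red, left of each pair) and untreated Z138 array (blue, right), 3 arrays each, with a black bar at the mean and a dotted line at 100. Values under 1 are drawn at 1. IGHM overlaps between the lines, the FCRL genes and PRKCB are bright in REC1 and dim in Z138, and IGLL1, JCHAIN and PIK3CG are higher in Z138.

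Markers used to stage B cells separated the lines. CR2 (CD21), the complement receptor of mature B cells, read 807, 681 and 922 in REC1, against 1, 3.96 and 0.99 in Z138 (at least 8.04-fold higher). CD24 averaged 1982 ± 126 in REC1 and 545 ± 25.03 in Z138. The plasma cell antigens CD38 (155 in REC1, against 508 in Z138) and SDC1, which encodes CD138 (33.3 in REC1, against 157 in Z138), were lower, although CD38 was not called against Z138 arrays 4 to 6, where it averaged 240. The RNA signals of the precursor and memory markers MME (CD10), CD27 and CD34 were under 100 in both lines. They were 78.3, 15.3 and 25.03 in REC1 and 3.96, 13.3 and 19.6 in Z138. For CD34 protein, the study's flow cytometry gave +++ in REC1 and + in Z138.

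Of 17 tested maturation and memory markers 14 were higher in REC1 and 2 lower, and the median was 2.89, the same counts as against Z138 arrays 4 to 6. CD44, a receptor for hyaluronan, was at 2267, 2123 and 2258 in REC1, against 0.00, 6.94 and 6.91 in Z138 (at least 22.2-fold higher), and all 7 of its tested probe sets were called. The lipid presenting molecules CD1C and CD1D averaged 795 and 934 in REC1, against 4.64 and 5.32 in Z138. The activation and costimulation genes CD83, CD86 and CD40 averaged 2140, 638 and 616 in REC1, against 180, 67.6 and 123 in Z138. CD9, a tetraspanin, was the lower marker beside IGHD (2.78 in REC1, against 438 in Z138).

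Plasma cell genes ran opposite, with 12 of 20 lower in REC1 and 0 higher (median -1.24), and 11 and 0 against Z138 arrays 4 to 6. TNFRSF17 (BCMA), a survival receptor of plasma cells, gave 108, 95.3 and 103 in REC1, against 1412, 1376 and 1418 in Z138 (13.7-fold lower). CAV1 averaged 10.2 ± 5.59 in REC1 and 1034 ± 18.5 in Z138. ERN1, the sensor IRE1 of the unfolded protein response, averaged 90.1 in REC1 and 597 in Z138. PRDM1 (Blimp-1), the regulator that starts plasma cell differentiation, was low in both lines and lower in REC1 (83.7 in REC1, against 199 in Z138, limma adjusted p = 0.0469). XBP1 and IRF4, both also needed for that fate, were at 618 and 401 in REC1 and at 418 and 791 in Z138 and were not called. Germinal center markers were mixed, 7 of 16 higher and 7 lower, and 6 and 5 against Z138 arrays 4 to 6.

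Among B cell transcription factors 13 of 34 were higher and 7 lower, and 9 and 6 against Z138 arrays 4 to 6. MEF2C, a factor that responds to receptor signals, averaged 489 ± 23.5 in REC1 and 28.2 ± 3.27 in Z138. IRF8, BCL11A and POU2F2 (OCT2) averaged 1301, 1317 and 719 in REC1, against 174, 188 and 130 in Z138. MYB, a factor of immature and proliferating blood cells, was among the lower ones at 154, 128 and 170 in REC1, against 1749, 1823 and 1853 in Z138 (12.08-fold lower). LEF1, which works with beta-catenin in Wnt signalling, averaged 33.7 in REC1 and 587 in Z138, and IKZF2 378 in REC1 and 1438 in Z138. PAX5, which maintains B cell identity, was 2.38-fold higher in REC1 against arrays 1 to 3 but was not called against arrays 4 to 6 (log2 difference 0.85).

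NF-kB genes were higher in REC1 wherever they were called. Of 28 tested 13 were higher and 0 lower, the median was 0.71, and the counts were the same against Z138 arrays 4 to 6. LTB, lymphotoxin beta, had 2765, 2947 and 2430 in REC1, against 21.1, 13.9 and 10.8 in Z138 (at least 27.1-fold higher, limma adjusted p = 1.13e-15). EBI3, a subunit of 2 cytokines of the interleukin 12 family, had 939, 897 and 934 in REC1, against 1, 0.00 and 0.00 in Z138. TNF averaged 508 in REC1 and 2.66 in Z138, the chemokine CCL22 258 in REC1 and 1.66 in Z138, and the survival gene BCL2A1 675 in REC1 and 1.32 in Z138. These targets were dim in Z138 on every array.

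Of the subunits and brakes, REL averaged 1148 ± 56.4 in REC1 and 213 ± 9.98 in Z138. NFKB1, RELA, NFKBIA and TNFAIP3 were not called, NFKBIA standing at 640 in REC1 and 837 in Z138, and TNFAIP3 (A20) at 380 in REC1 and 445 in Z138. Toll-like receptors and their partners moved in the same direction, 7 of 11 higher and 0 lower against either set of Z138 arrays, with TLR9 at 309 in REC1 and 58.6 in Z138 and CD180 at 310 in REC1 and 7.95 in Z138. The remaining 15 genes of that list were under 100 in both lines. Of 43 interferon-stimulated genes 28 were under 100 in both lines, and of the 15 tested 4 were higher and 1 lower (5 and 2 against Z138 arrays 4 to 6).

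Of the genes known for mantle cell lymphoma, the brightest CCND1 probe set and SOX11 were not called. CCND1 had 3730, 3782 and 3438 in REC1, against 3601, 3617 and 3627 in Z138, with overlapping groups. A second CCND1 probe set read 6.31 in REC1 and 458 in Z138, so the 2 probe sets did not show the same thing. SOX11 averaged 201 ± 6.83 in REC1 and 269 ± 38.2 in Z138 (log2 difference -0.41, 95% interval -1.18 to 0.37). CD5, CDKN2A and CDKN2B were dim in both lines, CDKN2A at 26.5 in REC1 and 16.6 in Z138. MTAP, which lies beside CDKN2A, was at 94.2 in REC1 and 127 in Z138. ATM, a DNA damage kinase, averaged 303 ± 17.1 in REC1 and 90.2 ± 10.8 in Z138 and was called higher.

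Among G1 cyclins, kinases and their inhibitors 6 of 22 were lower in REC1 and 0 higher, and 6 and 1 against Z138 arrays 4 to 6. CDKN1A (p21), a p53 target that blocks cyclin-dependent kinases, had 12.5, 10.1 and 8.61 in REC1, against 393, 431 and 425 in Z138. CDKN1C (p57) averaged 11.5 ± 4.64 in REC1 and 1256 ± 44.1 in Z138 (at least 12.6-fold lower), and CDKN1B (p27) 1023 in REC1 and 2119 in Z138. RB1, the retinoblastoma gene, averaged 818 ± 22.9 in REC1 and 2050 ± 164 in Z138. MYC was 1439 ± 121 in REC1 and 3353 ± 20.6 in Z138, but the call depended on the Z138 arrays used. Against Z138 arrays 4 to 6 the gap was under 2-fold (log2 difference -0.94). After the isotype control antibody, which is a different condition, MYC averaged 3330 in REC1 and 3477 in Z138.

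Of 20 tested p53 targets 9 were lower and 4 higher, but 7 and 2 against Z138 arrays 4 to 6. GADD45A, a stress gene that p53 and other factors induce, was among the 4 higher, at 492 ± 32.9 in REC1 and 22.6 ± 4.31 in Z138. Within the BCL2 family 5 of 15 were higher and 5 lower, but 3 and 4 against Z138 arrays 4 to 6. BCL2, the survival gene, averaged 144 ± 12.3 in REC1 and 570 ± 35.4 in Z138, whereas BCL2A1 was bright only in REC1. Of the death promoting members BCL2L11 (BIM) averaged 472 in REC1 and 10.3 in Z138, and PMAIP1 (NOXA) 616 in REC1 and 2276 in Z138. MCL1 averaged 1235 in REC1 and 1474 in Z138 by its brightest probe set and was not called, although its other 2 tested probe sets were called higher.

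Genes of the integrated stress response, which cells use when amino acids run short, were lower in 10 of 22 cases and higher in 2 (median -0.82), and in 9 and 1 against Z138 arrays 4 to 6. PHGDH, the first enzyme of serine synthesis, had 54.2, 62.9 and 57.0 in REC1, against 1075, 1176 and 1134 in Z138 (at least 11.3-fold lower). PSPH, the last enzyme of that pathway, averaged 65.6 ± 27.1 in REC1 and 1007 ± 85.1 in Z138, and PSAT1, the middle one, 832 in REC1 and 595 in Z138 without a call. ASNS, asparagine synthetase, averaged 197 in REC1 and 1764 in Z138, and the amino acid transporter SLC7A5 246 in REC1 and 1179 in Z138. ATF4, the factor that drives the response, was under 2-fold apart (1518 in REC1 and 2255 in Z138). The part of the culture medium in this difference was not tested. Cholesterol synthesis was higher in 6 of 22 genes and lower in 1, but only 2 higher genes (SC5D and DHCR7) were left against Z138 arrays 4 to 6.

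Of 22 tested Notch and Wnt genes 7 were higher and 7 lower, against either set of Z138 arrays. The higher ones were the Notch targets HES4, HEY1, HES1, NRARP and DTX1, the coactivator MAML2 and the modifier LFNG. HES4, a repressor of the HES family, had 485, 388 and 447 in REC1, against 2.01, 1.98 and 0.99 in Z138. HEY1 averaged 568 ± 22.5 in REC1 and 26.8 ± 5.001 in Z138, HES1 418 ± 64.4 in REC1 and 65.7 ± 7.61 in Z138, and NRARP, a feedback inhibitor of Notch, 745 ± 8.66 in REC1 and 123 ± 5.94 in Z138. The receptor genes NOTCH1 and NOTCH2 were level (131 and 928 in REC1, 116 and 908 in Z138). The lower ones included the Wnt ligand WNT5B (2.77 in REC1, against 298 in Z138), the coreceptor LRP6 (59.5 in REC1, against 469 in Z138) and LEF1.

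RBPJ, the factor through which Notch acts, prefers a core written GTGGGAA, which reads TTCCCAC on the other strand. The core was present within 250 bases upstream of the start in 2 of the 5 higher genes with a RefSeq promoter, against 6.69% of all genes by any start and 5.43% of all promoter windows. Those 2 are shown over bases 110 to 41 before the start (GRCh38.p14), with the core in capitals.
HES1, chr3:194136038-194136107, plus strand: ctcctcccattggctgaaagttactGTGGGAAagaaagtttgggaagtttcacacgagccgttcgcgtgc
HES4, chr1:1000138-1000207, minus strand: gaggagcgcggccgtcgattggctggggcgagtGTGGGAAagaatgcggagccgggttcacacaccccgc
Nothing was measured about binding at these letters.

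MS4A1, which encodes CD20, had 3879, 4175 and 3758 in REC1, against 3255, 3376 and 3484 in Z138. The groups did not overlap, yet the difference was small (log2 difference 0.22, 95% interval 0.10 to 0.35, limma adjusted p = 0.00214) and not called. This is RNA only, and the study's flow cytometry gave CD20 protein as +++ in REC1 and ++ in Z138. In the list of CD20, tetraspanin and complement regulator genes, 7 of 17 were higher and 3 lower against either set of Z138 arrays. CD37, a tetraspanin of mature B cells, had 1346, 1278 and 1419 in REC1, against 16.1, 19.8 and 17.8 in Z138 (at least 13.5-fold higher). CD52 averaged 2761 in REC1 and 149 in Z138, CD82 354 in REC1 and 7.96 in Z138, and TSPAN33 480 in REC1 and 3.33 in Z138. The complement regulators CD46 and CD55 were not called, and CD59 was lower (164 in REC1, against 380 in Z138).

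Homing receptors also differed, 11 of 23 higher and 3 lower, and 8 and 3 against Z138 arrays 4 to 6. CXCR5, which guides B cells into follicles, averaged 788 ± 66.7 in REC1 and 8.30 ± 2.38 in Z138. CXCR4, which retains them in bone marrow, had 408, 397 and 414 in REC1, against 3746, 3910 and 4007 in Z138 (9.56-fold lower). P2RY8, which confines B cells to germinal centers, averaged 18.8 in REC1 and 571 in Z138. ITGB2, the beta chain of the integrin LFA-1, averaged 420 in REC1 and 3.63 in Z138, and its ligand ICAM3 1485 in REC1 and 125 in Z138.

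Some of the largest differences fell outside these lists. GTSF1, a gene of germ cell RNA silencing, had 3152, 3386 and 3042 in REC1, against 7.03, 0.99 and 4.93 in Z138 (at least 31.9-fold higher), the largest bound in that direction among genes of 1 symbol. CHI3L2, COTL1, which binds actin, and SAT1, which breaks down polyamines, averaged 2616, 2221 and 2857 in REC1, against 10.6, 45.4 and 137 in Z138. Against Z138 arrays 4 to 6 the differences were smaller, on the log2 scale 3.86 instead of 5.62 for COTL1 and 3.51 instead of 4.39 for SAT1. BHLHE41, a repressor of the clock family, and NAPSB, a pseudogene, averaged 1604 and 1551 in REC1, against 6.61 and 13.9 in Z138. GSTP1, a glutathione transferase, had 31.3, 33.5 and 30.1 in REC1, against 2769, 2893 and 2665 in Z138 (at least 27.8-fold lower). CSRP2, NPTX1 and the membrane estrogen receptor gene GPER1 averaged 23.3, 23.99 and 69.8 in REC1, against 2677, 1687 and 1600 in Z138. VIM, vimentin, averaged 300 in REC1 and 3336 in Z138.

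Markers of other cells were checked as whole lists. Of 18 T cell markers 3 were above 100 in REC1 and 1 in Z138. Among the 3 tested, 2 were called higher and 0 lower, and 3 and 0 against Z138 arrays 4 to 6. The summed signal of the list was 3354 to 3499 in REC1 and 236 to 268 in Z138. The sum in REC1 came mostly from TRBC1, a T cell receptor constant region (1765, 1632 and 1756 in REC1, against 1, 0.99 and 0.99 in Z138), and CD3D (1393, 1324 and 1341 in REC1, against 3.01, 3.96 and 6.91 in Z138). CD3E, which T cells need beside CD3D, was at 62.2 in REC1 and 9.30 in Z138, and CD2, CD7, CD4, CD8A and CD28 were under 100 in both. The lists for NK cells (14 genes), monocytes (18), stroma and epithelium (17) and red cells and platelets (10) held 0 to 2 genes above 100 in either line. B cell markers were above 100 in 13 of 14 cases in REC1 and 11 of 14 in Z138. The part of other cells in these results was not tested.

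Few growth and housekeeping genes were called. Of 34 DNA replication genes 0 were higher and 2 lower (RFC3 and POLA1), of 32 mitotic genes 0 and 4 (BUB1, CENPF, CCNB2 and KIF23), and of 23 ribosome biogenesis genes none was called. Against Z138 arrays 4 to 6, CCNB2 was not called (log2 difference -0.93) and 2 ribosome biogenesis genes were lower. No gene of the 11 on the housekeeping list was called. GAPDH averaged 3448 ± 445 in REC1 and 3954 ± 86.2 in Z138, and PCNA, the sliding clamp of replication, 2869 in REC1 and 2729 in Z138.

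**Figure D4:**
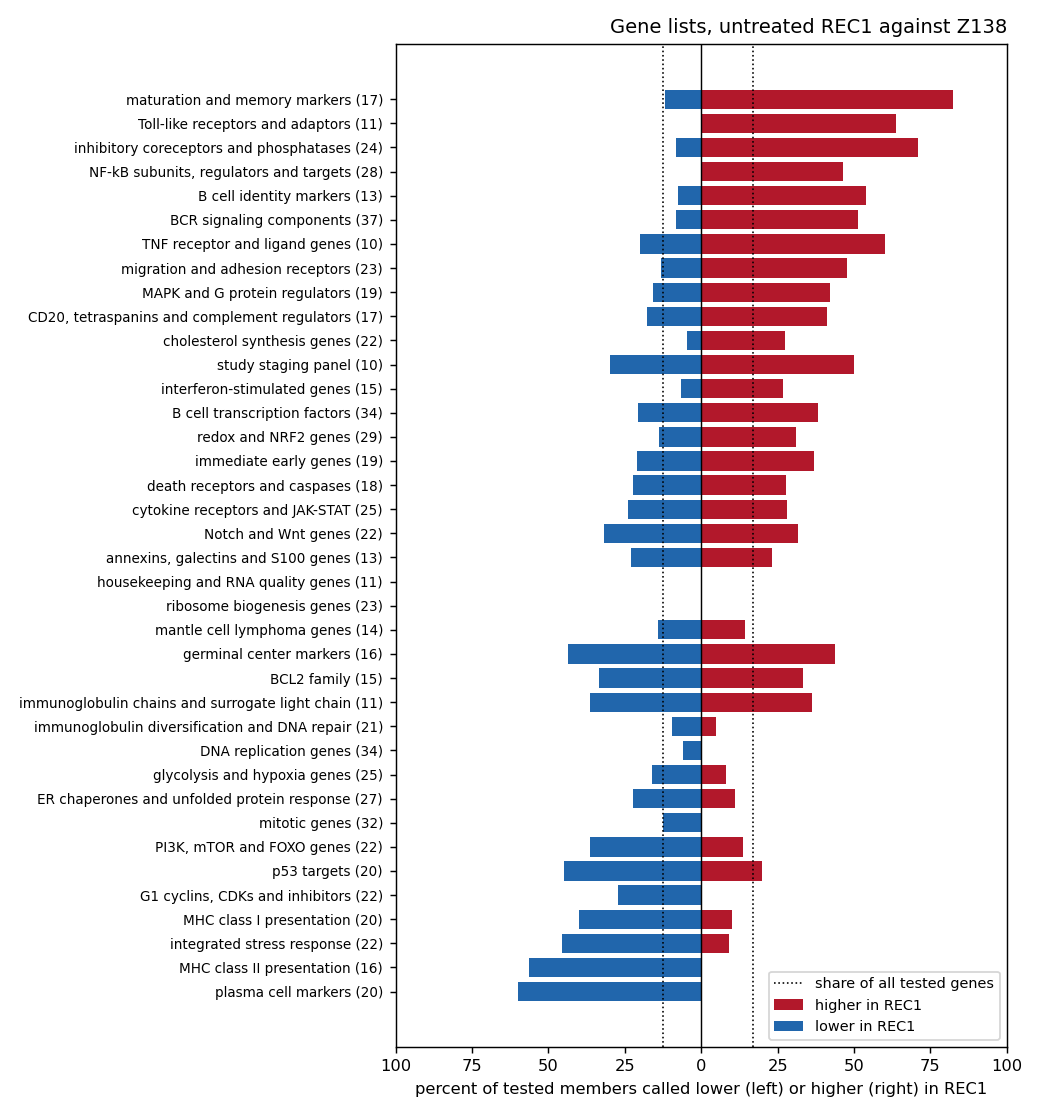
Share of tested members called lower (blue, to the left) or higher (red, to the right) in REC1 for each gene list with 10 or more tested members, whose number is in parentheses. The dotted lines mark the share among all tested genes, 16.8% higher and 12.4% lower. Maturation markers (14 of 17 higher) and inhibitory coreceptors (17 of 24) stand at one end, plasma cell markers (12 of 20 lower) and class II (9 of 16 lower) at the other. The lists were chosen with earlier results of these data known.

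The calls were uneven along the genome. On chromosome 13, 87 of 151 tested genes (57.6%) were lower in REC1 and 6 higher, with a median of -1.21 on the log2 scale and of -1.19 against Z138 arrays 4 to 6. RB1 and the replication gene RFC3 lie there. On chromosome 11, 157 of 454 (34.6%) were higher and 21 lower, with medians of 0.62 and 0.50, and ATM and CXCR5 lie there. Chromosome 15 had 26.4% lower and chromosome 19 had 27.5% higher. Over all tested genes 16.8% were higher and 12.4% lower.

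Runs of neighbours moved together within these and other chromosomes. Among 7744 windows of 10 consecutive tested genes, the window from FCRL5 to AIM2 on chromosome 1 was higher for all 10 genes, among them the 5 FCRL genes, CD1C and CD1D. The same held for VWA5A to CHEK1 on chromosome 11. All 10 genes were lower from ARHGEF7 to CDC16 on chromosome 13 and from PLPP6 to UHRF2 on chromosome 9. DNA copy number was not analysed here, and its part in these runs was not tested.

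The same genes were read in the other untreated lines. Of the 788 higher genes that were dim in Z138, 189 were above 100 in both SUDHL4 and OciLy18, 105 in SUDHL4 only, 112 in OciLy18 only and 382 in neither. Of the 448 lower genes that were dim in REC1, 150 were above 100 in both, 33 in SUDHL4 only, 112 in OciLy18 only and 153 in neither. HLA-DRA, LEF1 and GSTP1 belonged to those that only REC1 lacked. HES4, EBI3 and FCRL4 were bright in REC1 alone, and CAV1 in Z138 alone (7.86 in SUDHL4 and 12.1 in OciLy18). The brightest CCND1 probe set was at 7.32 in SUDHL4 and 5.12 in OciLy18 and bright in both mantle cell lines, unlike the second one.

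**Figure D5:**
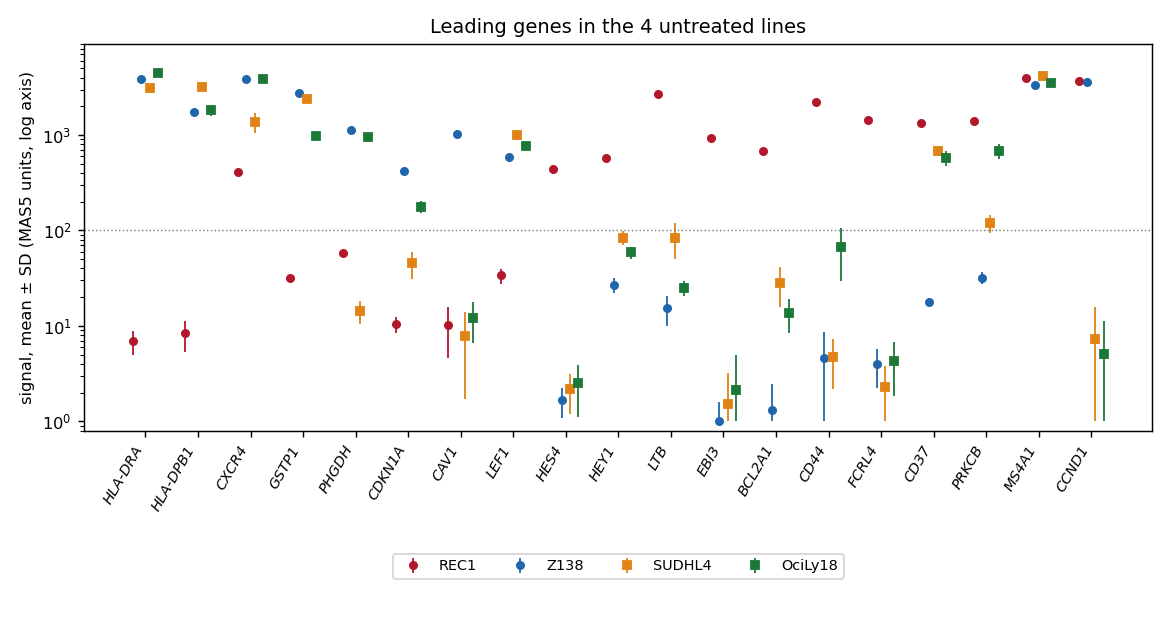
Mean signal ± SD (log axis) of leading genes in untreated REC1 and Z138 (circles, 3 arrays each) and untreated SUDHL4 and OciLy18 (squares, 6 arrays each), with a dotted line at 100. Values under 1 are drawn at 1. HLA-DRA is dim in REC1 only, HES4 and EBI3 are bright in REC1 only, CAV1 is bright in Z138 only, and the brightest CCND1 probe set is bright in both mantle cell lines.

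Arrays of treated cells, none of which entered the comparison of untreated cells, were compared between the lines in the same way. Isotype arrays are not untreated replicates, since the paper counted more genes changed by isotype or human IgG in REC1 than in Z138. After 4 hours with an isotype control antibody, 1085 of the 1339 higher genes (81.0%) and 862 of the 985 lower genes (87.5%) were called the same way and none the other way, where 1236 of all 7722 tested genes (16%) were higher and 1036 (13.4%) lower. With the CD20 antibody rituximab the shares were 77.7% of the higher and 83.4% of the lower genes, where 16.1% and 13.4% of tested genes were called. With LT20 they were 69.7% and 80.6%, where 15.6% and 14.8% were called, and 1 higher gene was called the opposite way. With anti-IgM they were 54.6% and 71.7% (13.8% and 16.4% of tested genes), and 8 higher and 4 lower genes were called the opposite way. With anti-IgMFab2 they were 55.9% and 66.6% (14.2% and 15.4%), with 6 and 3 called the opposite way. With anti-IgG they were 48.8% and 63.5%, and 8 of the higher and 2 of the lower genes were called the opposite way, where 889 of 7408 tested genes (12%) were higher and 1044 (14.1%) lower. Over all conditions, 895 of the 1339 higher genes had every one of 24 REC1 arrays above every one of 24 Z138 arrays, and 780 of the 985 lower genes had every REC1 array below. These 24 arrays per line include the untreated arrays that gave the calls.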

How the data were processed

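Total RNA of the 4 lines was labelled and hybridised to Affymetrix HG-U133 Plus 2.0 arrays, 1 array per sample. The deposited values are MAS5 signal intensity per probe set, not on a log scale and scaled by the authors so that array totals lie between 8528613 and 8530013 units. Spot data, scan dates and detection calls were not used here. A second deposited table holds the authors' means of triplicates and their change factors between conditions, and none of it was used.

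Genes were named from the platform annotation: 41097 of 54675 probe sets had 1 symbol, 1801 several and 11777 none. Signals below 1 were set to 1 and log2 transformed. limma 3.58.1 in R 4.3.3 (lmFit, eBayes with trend) was fitted to the 21 untreated arrays in 7 groups of 3, for 14223 probe sets with a mean above 100 in REC1 or Z138. A call needed a Benjamini-Hochberg adjusted p below 0.05 and a change above 2-fold. Array number limits the precision. A gene's values come from its brightest tested probe set. On simulated data with 100 probe sets changed 3-fold and 100 changed 4-fold, all were recovered and 3 of the others were called. The changed probe sets started above the signal limit in both simulated lines, with noise independent between arrays. The simulation therefore does not cover genes near the floor or differences between sets of arrays. Line differences after each treatment came from 1 fit over all 48 REC1 and Z138 arrays.

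The rule for named genes gave 146, not all of which are printed: the 12 highest and 12 lowest in REC1 by bounded fold, a staging panel, the 4 smallest adjusted p of each of the 44 lists that had at least 3 called members, 6 mantle cell lymphoma genes, and list members given by value. Of 1285 list entries 117 had no probe set of that single symbol. Members and lists were chosen with earlier results of these data known. Sequences are from RefSeq. Alternatives tried were other floors, normalizations, filters, array sets, a replicate block, the mean over a gene's probe sets and leaving out each array.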

Additional observations from a re-analysis of the deposited data

Results flagged for a closer look

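For 8 named genes the line difference of untreated cells was opposite in a treatment, with all 3 REC1 arrays beyond all 3 Z138 arrays both times. Differences are log2 ratios of means, REC1 over Z138, and the change between conditions was not tested. MYC, lower in untreated REC1, was higher after LT20 (0.27), anti-IgM (0.96), anti-IgMFab2 (0.98) and anti-IgG (1.99). KLF10, an early TGF-beta response gene, was also lower in untreated REC1 and was higher after anti-IgM (1.04) and anti-IgMFab2 (0.75). MXI1, a MYC antagonist, was higher after anti-IgG (1.05), with 153 in REC1 and 73.8 in Z138, against 65.0 in REC1 and 455 in Z138 among untreated cells. FKBP11 was higher after anti-IgM (0.13).

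The other 4 genes were higher in untreated REC1 and turned lower. CD24 stood at -0.18 after anti-IgM and -0.20 after anti-IgMFab2, where REC1 averaged 458 after anti-IgM and 448 after anti-IgMFab2, and Z138 520 and 513. PAX5 stood at -0.37 after anti-IgM, BST2 at -0.55 after anti-IgG, and IL10RA at -0.54 after anti-IgMFab2.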

How the results depend on the processing

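Counts of higher and lower entries (1834 and 1395) stayed within 1.5 times under most alternatives. A mean signal above 200 left 1178 higher entries, a 4-fold limit left 651 higher and 437 lower, and no signal filter gave 5974 and 2490. The last tests dim probe sets, of which Z138 arrays 1 to 3 had more below 1. Against Z138 arrays 4 to 6 the counts were 1417 and 1390, and 1321 and 1126 were shared. Leaving out 1 array at a time gave 1728 to 1928 higher and 1354 to 1439 lower entries. Of all calls 56.8% were higher in REC1, against 50.5% after quantile normalization, 52.8% after median centring and 50.5% against arrays 4 to 6. Replicate numbers did not pair the arrays (correlations of same-numbered deviations 0.087, -0.056 and -0.097), and a fit with the number as a block called 1834 and 1401. No call of a named gene reversed, but the uncalled differences of IGHM, CCND1 and SOX11 changed sign in some settings. With all tested probe sets of a gene averaged, FCRLA, BID, DNAJB9 and ATF6 lost their call and CCND1 became lower (-3.23). For the line difference in each treatment, fitted over all REC1 and Z138 arrays, 1949 genes of 1 symbol had the same call in untreated and isotype arrays (1787 with 16 added and 1932 after quantile normalization, both chosen after seeing the data). Against arrays 4 to 6 and in the isotype arrays 7 and 8 named genes lost their call.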

Other observations

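IFNGR1, the ligand binding chain of the interferon gamma receptor, averaged 2453 ± 62.9 in REC1 and 325 ± 14.4 in Z138, and IL10RA 664 ± 78.1 in REC1 and 46.05 ± 3.03 in Z138. The 2 chains of the interleukin 6 receptor went in opposite directions, IL6R at 332 ± 27.6 in REC1 and 0.333 ± 0.577 in Z138, and IL6ST, its signalling chain, at 13.6 ± 3.02 in REC1 and 304 ± 15.1 in Z138. The feedback inhibitors SOCS1 and SOCS2 averaged 18.1 and 21.5 in REC1, against 202 and 314 in Z138. In this list 7 of 25 tested genes were higher and 6 lower, and 5 and 5 against Z138 arrays 4 to 6.

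Glutathione transferases moved in both directions. GSTM1 and GSTM2, which are close in sequence and may be read by each other's probes, averaged 227 and 317 in REC1, against 41.8 and 52.3 in Z138, while GSTP1 was at 31.6 in REC1 and 2776 in Z138. CASP1 and CASP4, the inflammatory caspases, averaged 657 and 183 in REC1, against 64.3 and 14.6 in Z138. APOBEC3B, a DNA cytidine deaminase, averaged 29.2 ± 1.22 in REC1 and 594 ± 65.5 in Z138. PRF1, perforin, was the 1 NK cell marker above 100, at 23.6 in REC1 and 270 in Z138, and COL1A1, a collagen, was at 15.0 in REC1 and 349 in Z138.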
